A study of Mus musculus with 4 samples.

Results

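Enterocytes are the absorptive cells of the small intestinal epithelium, and they form as progeny of crypt stem cells leave the cycling transit amplifying compartment and move up the villus. The cells described here are the enterocytes with the least RNA of 5 genes of the mature absorptive programme: Alpi, which encodes intestinal alkaline phosphatase, the apolipoproteins Apoa1 and Apoa4, the retinol binding protein Rbp2 and the adenosine deaminase Ada. For each cell that the deposited annotation calls an enterocyte, the UMIs (unique molecular identifiers, each standing for 1 captured transcript) of these 5 genes were taken as a share of all its UMIs. Members were chosen by this measured share, and cells at or below the median share of their own library were kept. They are called low-share enterocytes, and the remaining enterocytes are called high-share. This gave 4239 of 8474 enterocytes, out of 15053 cells in all.

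The cells come from mouse small intestine dissociated after a control diet or a ketogenic diet, a diet of much fat and very little carbohydrate. Each diet has 2 libraries, made with 10x 3' version 2 chemistry. The labels state no strain, age, sex, genotype or length of feeding for either group, nor how many mice went into a library. Since nothing says that the libraries came from separate animals, p-values measure library-to-library spread alone, which can be technical. The tests estimate that spread partly from all genes together.

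The series title places the work in intestinal tumorigenesis and sets lipids against ketones. As background, fatty acids bind PPAR receptors, nuclear receptors that switch on genes of fatty acid transport and oxidation. Low sterol activates the factor SREBP2, which drives cholesterol synthesis.

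Control libraries 1 and 2 held 1078 and 1386 low-share enterocytes with 8650456 and 9494319 UMIs in sum. Ketogenic libraries 1 and 2 held 874 and 901 with 7898314 and 7735745 UMIs. Median UMIs per low-share cell were 8223.5 and 7251 on the control diet and 9992 and 9271 on the ketogenic diet, so depth per cell was higher on the ketogenic diet. The median mitochondrial share was close in the 4 libraries, between 7.49% and 8.09%. In high-share enterocytes that share ran from 9.49% to 20.1%, with ketogenic library 1 the highest.

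The dividing share lay at very few transcripts. It was 0.0320% of a cell's UMIs in control library 1, 0.0177% in control library 2, 0.0278% in ketogenic library 1 and 0.00968% in ketogenic library 2. Low-share enterocytes without a single UMI of the 5 genes made up 58.8%, 76.3%, 49.8% and 82.5% in the same order. Of all enterocytes, 37.7%, 67.7%, 43.1% and 73.9% in that order lay within 2 UMIs of the division. The cells just inside it in ketogenic library 2 had a share of 0.00968% and those just outside 0.00971%, in each case from 1 UMI. Membership is thus a range along a gradient and not a separate type, and the division lay lowest in control library 2 and ketogenic library 2.

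Control library 1 stood apart in respects that touch the results below. Levels are given as CPM, the UMIs of a gene in a sum of cells scaled to 1000000 UMIs. Cd74, the invariant chain of MHC class II antigen presentation, reached 809 CPM in its low-share enterocytes, and the other 3 libraries held 39.8 to 66.7 CPM. Fabp6, the ileal bile acid binding protein, reached 526 CPM there, and the other 3 held 19.7 to 142 CPM. Cells with 10 or more Fabp6 UMIs numbered 52 in control library 1, 6 in control library 2, 2 in ketogenic library 1 and 12 in ketogenic library 2. Barcodes shared between libraries numbered 111 over all cells and 6 among low-share enterocytes.

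The 5 markers proposed for these cells gave a divided answer. Stmn1, a tubulin regulator of cycling cells, was at 574 and 625 CPM in low-share and 183 and 285 CPM in high-share enterocytes of the control libraries. In the ketogenic libraries it was at 604 and 695 against 201 and 407 CPM. Gpx2, an epithelial glutathione peroxidase, was also higher in low-share cells of every library, by log2 ratios of 0.11 to 0.56. The other 3 went the other way in every library. Dmbt1, a mucosal scavenger receptor protein, had log2 ratios of low-share over high-share from -1.52 to -0.78, and the chemokine Ccl25 from -1.17 to -0.84. Reg1, a secreted lectin, had ratios from -4.29 to -3.43, with 21.4 and 36.8 CPM in low-share and 437 and 667 CPM in high-share control cells. So 3 of the 5 markers went against the name proposed for these cells, the immature enterocytes, and the cells are named here by the rule. These ratios, like all level differences between the low-share and high-share cells, follow from how the cells were chosen and are given without a test.

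Outside the 5 genes of the rule, low-share enterocytes held more RNA of several crypt genes. Genes at a mean log2 CPM of 6 or more were ranked by their excess over high-share cells in the library where it was smallest. The first 12 were Sox4, Gkn3, Igfbp4, Slc12a2, Clca3b, Amica1, Sox9, Pdgfa, Ifitm3, Cdca7, Smoc2 and Cdk6. Sox9, a transcription factor of crypt progenitors, was at 93.4 and 106 CPM in control and 120 and 119 CPM in ketogenic low-share cells, against 12.1, 27.1, 23.1 and 51.0 CPM in high-share cells. Smoc2, a gene of the stem cell signature, was at 165 and 166 CPM in control and 152 and 172 CPM in ketogenic low-share cells, against 30.8, 63.1, 40.0 and 77.6 CPM. Both genes were higher in low-share cells of all 4 libraries. Sox4, a factor of undifferentiated progenitors, led the 12, with a log2 ratio of 1.57 in ketogenic library 2 and 3.65 in control library 1. For all 12 genes the ratio was smallest in ketogenic library 2, and it was largest in control library 1 for all but Clca3b.

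**Figure D1:**
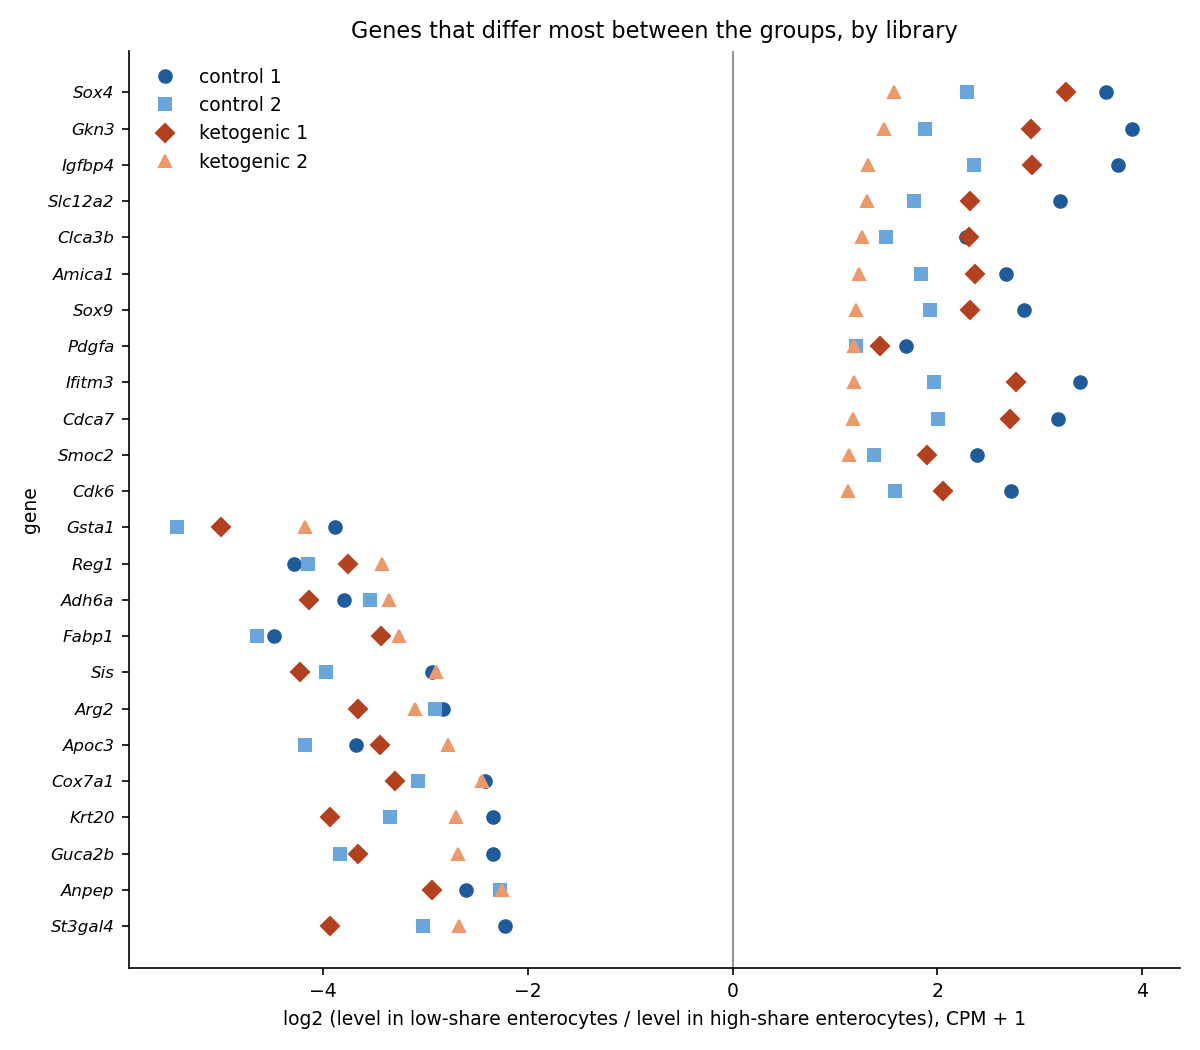
Each row is a gene and each symbol a library, and the x axis gives the log2 ratio of the level in low-share over that in high-share enterocytes, from CPM plus 1. The plot has 12 genes to the right of 0 and 12 to the left in all 4 libraries, and symbols of ketogenic library 2 are the nearest to 0 among the genes on the right.

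The 12 genes with the largest deficit, ranked in the same way, were Gsta1, Reg1, Adh6a, Fabp1, Sis, Arg2, Apoc3, Cox7a1, Krt20, Guca2b, Anpep and St3gal4. Several belong to absorption: Fabp1 binds fatty acids in the cytosol, Sis is the sucrase-isomaltase of the brush border, Anpep is aminopeptidase N, and Apoc3 is an apolipoprotein. Krt20, a keratin of differentiated cells, was at 54.1 and 9.69 CPM in control and 5.57 and 9.70 CPM in ketogenic low-share cells. In high-share cells it was at 279, 108, 99.3 and 68.4 CPM. Control library 1 was the highest for Krt20 in both groups of cells. Ada, although part of the rule, hardly separated the groups, with log2 ratios from -1.61 to 0.10.

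Gene lists set these cells beside the crypt classes. A list of 13 stem cell genes summed to 1389 and 1777 CPM in control and 1753 and 1788 CPM in ketogenic low-share enterocytes. The same list summed to between 1220 and 1424 CPM in transit amplifying cells, to between 2790 and 2933 CPM in stem cells and to between 216 and 774 CPM in high-share enterocytes. In each library low-share enterocytes held more of this list than transit amplifying cells and less than stem cells. Lgr5, the receptor that defines crypt base stem cells, was at 31.2 and 43.5 CPM in control and 37.1 and 45.0 CPM in ketogenic low-share cells, against 186 to 212 CPM in stem cells. Its level was 21.8 to 36.4 CPM in transit amplifying cells. The 18 S phase genes summed to between 979 and 1070 CPM in low-share enterocytes and to between 2311 and 2490 CPM in transit amplifying cells. Mki67, a protein of cycling cells, was at 35.6 to 45.8 CPM in low-share enterocytes against 89.6 to 113 CPM in transit amplifying cells. In high-share enterocytes it was at 30.8 to 50.2 CPM, with log2 ratios of low-share over high-share from -0.49 to 0.39, so it did not separate the 2 groups. The sum of the 18 S phase genes did, at between 339 and 746 CPM in high-share enterocytes. Such a sum can rest on its most abundant genes. Of single cell cycle genes, Pcna had log2 ratios of low-share over high-share from 0.095 to 0.60 and Top2a from 0.22 to 0.94. In S phase genes the low-share enterocytes were close to stem cells, at 1033 to 1140 CPM, and under the transit amplifying cells in every library.

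Within the low-share enterocytes, stem cell genes were higher in cells without a rule transcript. Cells without any UMI of the 5 genes had stem cell gene sums of 1696 and 1923 CPM in control and 1943 and 1914 CPM in ketogenic libraries. Cells with 1 or more had 1093 and 1472 CPM in control and 1628 and 1442 CPM in ketogenic libraries. A cell with fewer UMIs in all is more likely to show none of the 5 genes, so these groups differ in depth too. The part of depth was not tested. The 15 upper villus genes outside the rule summed to between 491 and 568 CPM in cells without a UMI and to between 499 and 634 CPM in cells with 1 or more. In the upper part of the high-share cells, which is itself set by the share, they summed to between 1082 and 1456 CPM. Over 3496 genes, the correlation of log2 levels across genes with transit amplifying cells of the same library was 0.983 to 0.986. With stem cells it was 0.959 to 0.985 and with high-share enterocytes 0.894 to 0.951. Genes are not independent replicates, the cells of a library share their preparation and free RNA, and these values describe the libraries only.

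**Figure D2:**
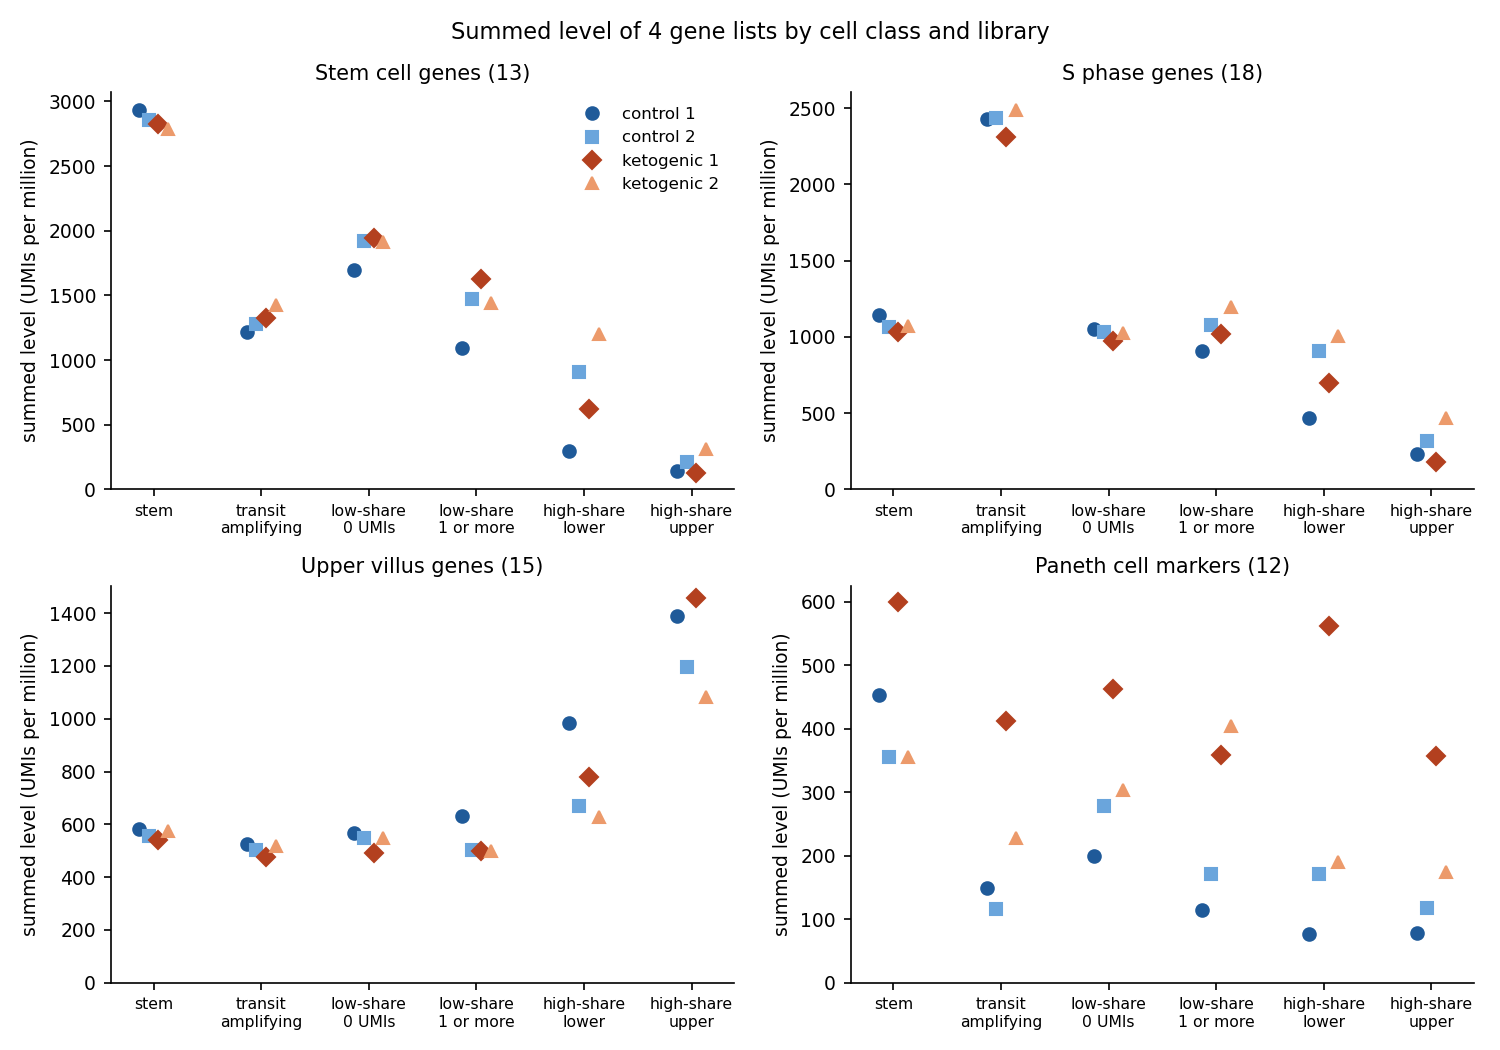
Each panel gives the summed level of a gene list in CPM (y axis, from 0) for 6 groups of cells (x axis), with 1 symbol per library and no error bars. Stem cell genes in low-share enterocytes lie between the stem and the high-share cells, S phase genes lie below the transit amplifying class, and the 15 upper villus genes outside the rule are highest in the upper part of the high-share cells, which the share itself sets.

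Markers of other cell types were checked beside these levels. The 12 Paneth cell genes in the matrix, which include those of defensins and lysozyme, summed to 157 and 244 CPM in control and 400 and 330 CPM in ketogenic low-share enterocytes. Goblet cell genes summed to between 592 and 610 CPM in all 4 libraries. Lymphocyte genes summed to 9.25, 51.1, 0.127 and 34.0 CPM. The granzyme Gzma reached 10 or more UMIs in 2 cells of control library 2 and in 1 cell of ketogenic library 2. Control library 1 and ketogenic library 1 held 1 Gzma UMI each. Red blood cell markers were at 0 in every library. Fewer cells of a type and less RNA per cell cannot be told apart in sums of this kind. Paneth cell genes were higher on the ketogenic diet, and their part in the results below was not tested.

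The main comparison asked how the diet changed gene expression in low-share enterocytes. Fabp1, Acot1, Mgll and 3 enzymes of mitochondrial beta-oxidation rose, and Sis, Pkm, Fdft1, Smim24 and Adh6a fell. Of 10922 genes tested by edgeR, 12 passed an adjusted p of 0.05, which is 0.11%, with 7 up (0.0641%) and 5 down (0.0458%). At an unadjusted p under 0.05, 406 genes (3.72%) were higher and 455 (4.17%) lower. The call is a narrow one, since 9 of the 12 had adjusted p-values between 0.0471 and 0.0498. All 7 rises belong to a list of PPAR target genes, which was chosen with results of these data known.

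Fabp1 is the liver-type fatty acid binding protein, which carries absorbed fatty acids through the cytosol (chromosome 6, 71199827 to 71205023, plus strand, mm10). It was at 61.6 and 64.9 CPM in control and at 1198 and 570 CPM in ketogenic low-share enterocytes. Both ketogenic libraries lay far above both control libraries, and they differed between themselves, with library 1 the higher. The rise was 14.0-fold, or 3.80 ± 0.32 in log2 units (± SE here and below, 2 libraries a diet; adjusted p = 0.0115 by edgeR). It passed in each of 16 alternative analyses, with log2 values from 3.17 to 4.24. In control libraries the low-share level was close to that in goblet cells, at 52.7 and 46.0 CPM, secretory cells that should hold little of it. In ketogenic libraries goblet cells had 362 and 256 CPM, under the low-share enterocytes of the same libraries. The part of free RNA in the rise was not tested.

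The bases before the start of Fabp1 are shown because a PPAR element would be a repeat of a short word there. PPAR receptors with their partner RXR bind a direct repeat of AGGTCA with 1 base between, searched here as AGGTCANAGGTCA on both strands with at most 2 other letters allowed. The word was found between 67 and 55 bases before the RefSeq start, at 71199879, on the minus strand, as AGGCCATAGGTCA, with 1 letter changed. The GENCODE start given above lies 52 bases upstream of the RefSeq start, and the word lies 15 to 3 bases before it. The 250 bases before the RefSeq start come from RefSeq on build GRCm38.p6, chr6:71199629-71199878, plus strand, with the match in capitals as it reads on that strand.
Fabp1: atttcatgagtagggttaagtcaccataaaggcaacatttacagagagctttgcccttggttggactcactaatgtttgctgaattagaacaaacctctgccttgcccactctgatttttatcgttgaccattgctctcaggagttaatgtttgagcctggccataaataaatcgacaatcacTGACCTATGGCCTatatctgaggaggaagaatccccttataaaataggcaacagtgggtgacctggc
Such a match was present in 3.86% of 32851 promoters of 300 bases. It was present in 1 of 7 promoters of the 6 named genes that rose, and in 4 of 28 promoters of tested PPAR list genes, those of Plin2, Fabp1, Slc25a20 and Creb3l3. A match describes letters, and says nothing of binding in these cells.

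Acot1, a cytosolic thioesterase that releases fatty acids from coenzyme A (chromosome 12, 84009490 to 84018371, plus strand), was at 42.5 and 67.5 CPM in control and 332 and 192 CPM in ketogenic low-share enterocytes. The diets did not overlap, and the log2 fold change was 2.25 ± 0.28 (adjusted p = 0.0487 by edgeR). Mgll, which splits monoglycerides into glycerol and fatty acid, went from 0.564 and 0.748 CPM to 11.9 and 7.5 CPM. Its log2 fold change was 3.85 ± 0.39 (adjusted p = 0.0318 by edgeR), from 12 UMIs in all control low-share cells against 150 in ketogenic ones, so its size is uncertain. The 3 enzymes of mitochondrial beta-oxidation that were called rose by less and with close replicates. Acadvl, the very long chain acyl-CoA dehydrogenase, was at 87.1 and 95.7 CPM in control and 159 and 161 CPM in ketogenic libraries (0.81 ± 0.10). Acadl, the long chain dehydrogenase, went from 49.1 and 42.7 to 85.1 and 82.4 CPM (0.87 ± 0.11). Eci2, an enoyl-CoA isomerase, went from 77.4 and 71.6 to 129 and 121 CPM (0.74 ± 0.10, adjusted p = 0.0498 by edgeR). Each of these 3 enzymes was 1.67-fold to 1.82-fold higher, far less than Fabp1.

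The PPAR target list as a whole had 30 genes tested, of which 27 were higher and 7 rose past the threshold, with 0 called down. At an unadjusted p under 0.05, 25 were higher and 0 lower. Its median log2 fold change was 0.77, against 0.01 over all genes tested, and stayed between 0.69 and 0.87 when each library was left out. Creb3l3, a membrane-bound transcription factor of triglyceride metabolism, had the largest value on the list at 4.23 ± 0.56 but missed the threshold (adjusted p = 0.0532 by edgeR). In 12 of 16 alternatives it passed. Its levels were 1.47 and 0.748 CPM in control and 30.3 and 11.4 CPM in ketogenic libraries. Of the called genes, Mgll, Smim24 and Pkm also passed in 12 of the 16. Acot1, Acadl, Acadvl, Eci2, Sis and Fdft1 passed in 11 of the 16. Some members of the PPAR list had values near 0. Plin2, a lipid droplet coat protein, was at 64.2 and 70.2 CPM in control and 74.4 and 67.7 CPM in ketogenic libraries, and Acadm, the medium chain dehydrogenase, at 79.1 and 78.9 against 74.3 and 77.7 CPM. Both are named after their values were seen. The diets overlapped for Plin2, and Acadm was slightly lower in both ketogenic libraries (-0.06 ± 0.09).

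Mitochondrial fatty acid oxidation, with 23 genes tested, had 19 higher, 3 called up and a median of 0.38. Acadvl, Acadl and Eci2 are the 3, and they are also on the PPAR list. At an unadjusted p under 0.05, 12 were higher and 0 lower. Of 13 tested genes of fatty acid uptake, binding and activation 6 were higher with a median of -0.03 and Fabp1 alone called, and at an unadjusted p under 0.05 3 were higher and 1 lower. Of 17 genes of chylomicron assembly and triglyceride synthesis 1 was higher with a median of -0.32, which was -0.11 without control library 1. Of them 0 passed by edgeR, with 5 lower and 0 higher at an unadjusted p under 0.05. Of 13 lipogenesis and desaturation genes 4 were higher with a median of -0.16, which was -0.05 without control library 1. Of them 0 passed by edgeR, with 2 higher and 3 lower at an unadjusted p under 0.05. Of 16 peroxisomal fatty acid oxidation genes, 12 were higher with a median of 0.26, 0 passed by edgeR and 7 were higher at an unadjusted p under 0.05. Pex11a, a factor of peroxisome division, had the lowest p of these at 0.84 ± 0.17 (adjusted p = 0.228 by edgeR). Me1, the malic enzyme that supplies NADPH for lipid synthesis, was at 1.92 and 0.855 CPM in control and 10.1 and 6.61 CPM in ketogenic libraries and did not pass (2.58 ± 0.40, adjusted p = 0.111 by edgeR).

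Sis and Pkm fell among the genes of sugar digestion and glycolysis. Sis (chromosome 3, 72888557 to 72967863, minus strand) was at 128 and 50.7 CPM in control and 6.53 and 10.0 CPM in ketogenic low-share enterocytes. Control library 1 was the highest, and the fall was -3.43 ± 0.44 on the log2 scale (adjusted p = 0.0498 by edgeR). Goblet cells held 35.4 and 25.3 CPM of Sis in control and 5.64 and 6.24 CPM in ketogenic libraries, so the ketogenic level in low-share cells lay near that of cells which should lack the enzyme. Pkm, the pyruvate kinase of glycolysis (chromosome 9, 59656368 to 59679375, plus strand), was at 297 and 309 CPM on the control and 158 and 173 CPM on the ketogenic diet, with replicates closer to each other than to the other diet (-0.87 ± 0.10, adjusted p = 0.0471 by edgeR). Of 9 tested genes of carbohydrate digestion and sugar transport, 8 were lower with a median of -0.46. Sis alone of them was called, and 6 were lower at an unadjusted p under 0.05 with 0 higher. Of 16 glycolysis genes, 13 were lower with a median of -0.31. Pkm alone was called, and at an unadjusted p under 0.05 6 were lower and 2 higher.

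Fdft1 fell among the genes of cholesterol synthesis. Fdft1, the squalene synthase (chromosome 14, 63145150 to 63179578, minus strand), was at 53.8 and 49.3 CPM in control and 28.2 and 26.8 CPM in ketogenic low-share enterocytes. Its log2 fold change was -0.90 ± 0.11 (adjusted p = 0.0487 by edgeR). All 25 tested members were lower, with values from -2.07 to -0.11 and a median of -0.56. Fdft1 alone was called, and 18 were lower at an unadjusted p under 0.05. Without control library 1 the median was -0.34.

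The other falls were in Smim24 and Adh6a. Smim24, a small membrane protein (chromosome 10, 81393051 to 81395392, plus strand), was at 747 and 562 CPM on the control and 298 and 267 CPM on the ketogenic diet (-1.21 ± 0.14, adjusted p = 0.0487 by edgeR). Adh6a, an alcohol dehydrogenase, went from 32.6 and 38.2 CPM to 16.8 and 14.8 CPM (-1.16 ± 0.14, adjusted p = 0.0487). It lies under the level set for named genes and is named after its values were seen.

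**Figure D3:**
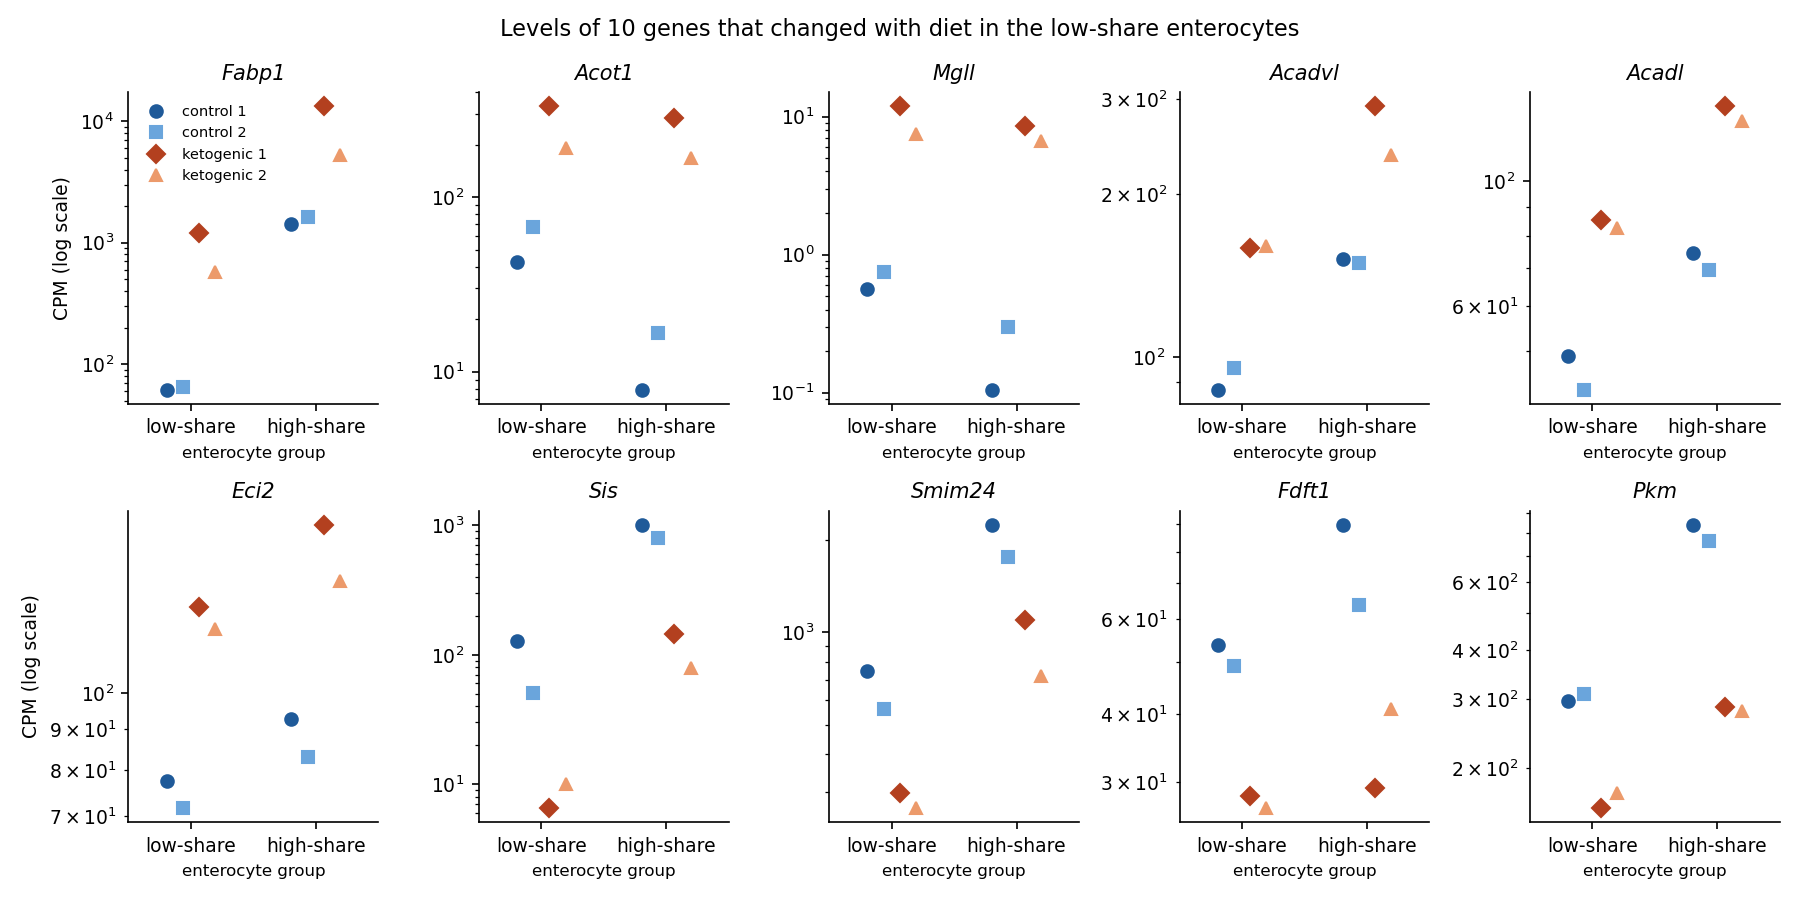
Levels in CPM on log axes that do not start at 0 for 10 genes that changed with diet in low-share enterocytes, shown for low-share and high-share cells, with 1 symbol per library and no error bars. For the 6 genes from Fabp1 to Eci2 both ketogenic symbols lie above both control symbols in low-share cells. For the 4 from Sis to Pkm both ketogenic symbols lie below both control symbols. The rule for naming required this lack of overlap of each gene but Mgll, and 39.7% of all tested genes do not overlap.

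The count of 12 moved with each library. It was 1 without ketogenic library 1, 3 without ketogenic library 2, 313 without control library 1 and 886 without control library 2, and DESeq2 called 45 genes with all 12 among them. Without cells with 10 or more Fabp6 UMIs 33 genes passed, again with all 12 among them.

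Other lists held few or no called genes. Of 19 lower villus and crypt-side enterocyte genes 13 were lower with a median of -0.40. Fabp1 was the single called member, and at an unadjusted p under 0.05 10 were lower and 1 higher. Its median was -0.21 without control library 1. The Reg lectins and epithelial antimicrobials had 0 called of 12 by edgeR, with 10 lower, a median of -0.41, and 7 lower and 1 higher at an unadjusted p under 0.05. Leaving out control library 1 gave a median of -0.27, and leaving out ketogenic library 2 gave -0.69. Reg3b, a bactericidal lectin, was at 2629 and 1378 CPM in control and 338 and 666 CPM in ketogenic low-share enterocytes, without overlap, and did not pass (-2.0 ± 0.36, adjusted p = 0.154 by edgeR). Of 13 interferon response genes all were lower with a median of -0.57, 0 passed by edgeR and 6 were lower at an unadjusted p under 0.05. Bst2, an antiviral membrane protein, had the lowest p of them at -0.63 ± 0.13 (adjusted p = 0.235 by edgeR). All 11 MHC class I genes were lower with a median of -0.53, 0 passed and 5 were lower at an unadjusted p under 0.05. The median was -0.11 without control library 1. The 6 tested MHC class II genes had a median of -2.98 and 0.15 without control library 1, so that difference rested on 1 library. Of 8 tested distal intestine genes 7 were lower with a median of -0.94, which was 0.21 without control library 1. Of them 0 passed by edgeR, with 1 lower and 0 higher at an unadjusted p under 0.05.

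Lists of stem, cycling and Paneth cell genes held 0 called genes. Of 13 stem cell genes 10 were higher with a median of 0.22, 0 passed by edgeR and 4 were higher at an unadjusted p under 0.05. Leaving out control library 1 gave a median of 0.04, and leaving out control library 2 gave 0.39. Znrf3, a ubiquitin ligase that restrains Wnt signalling, had the lowest p of the list, at 11.1 and 10.3 CPM in control and 16.6 and 18.1 CPM in ketogenic libraries (0.70 ± 0.15, adjusted p = 0.263 by edgeR). Lgr5 was at 0.14 ± 0.18 on the log2 scale. Of the 18 S phase genes 9 were higher with a median of 0.04, which ran from -0.06 without control library 1 to 0.12 without control library 2, and of 20 G2 and M phase genes 16 were lower with a median of -0.19. None of either cell cycle list passed by edgeR, against 2 higher and 1 lower, and 0 higher and 3 lower, at an unadjusted p under 0.05. Of 11 Paneth cell genes 10 were higher with a median of 0.84, 0 passed by edgeR and 7 were higher at an unadjusted p under 0.05. The median was 0.52 without control library 1. Defa20, a defensin with near-identical copies whose counts are uncertain, was at 12.3 and 12.9 CPM in control and 27.4 and 22.8 CPM in ketogenic libraries (0.99 ± 0.15, adjusted p = 0.111 by edgeR). Of 14 goblet cell genes 10 were higher with a median of 0.35, though their sums were close in the 4 libraries, and 0 passed by edgeR. At an unadjusted p under 0.05, 4 were higher and 0 lower. The goblet median was 0.14 without ketogenic library 2. Ang4 had the largest value on both the goblet and the Paneth list, at 1.38. Of 6 tested glucocorticoid-responsive genes 5 were higher with a median of 0.51, 0 passed by edgeR and 4 were higher at an unadjusted p under 0.05.

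**Figure D4:**
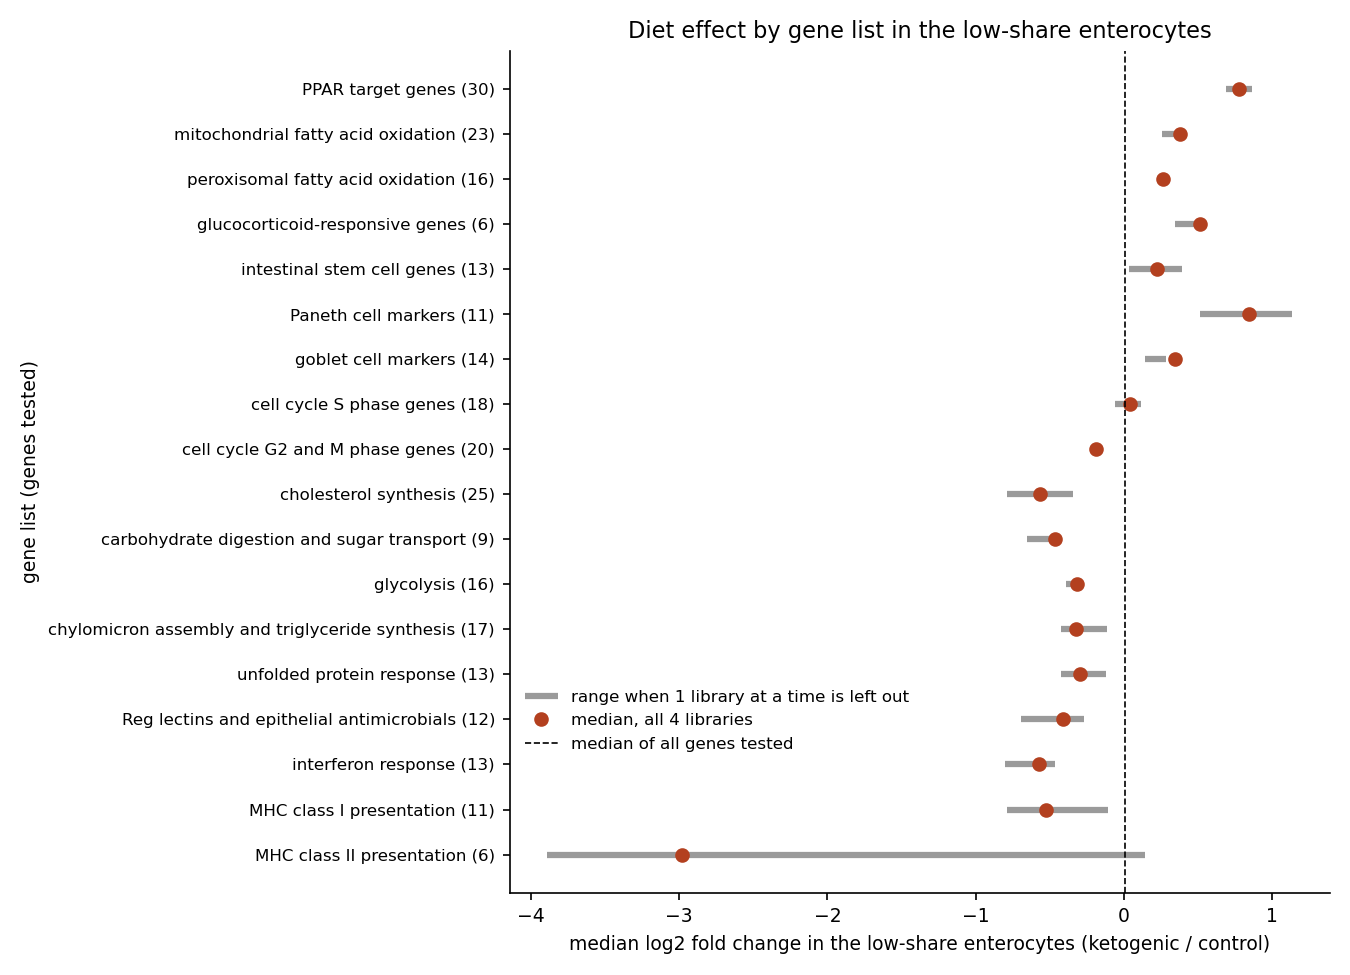
Median log2 fold change of each gene list in low-share enterocytes, ketogenic over control (x axis), with the range when 1 library at a time is left out as a bar; numbers in brackets are genes tested. PPAR target genes lie at 0.77 with a short bar, and MHC class II genes run from -3.89 to 0.15.

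The diet effect was next set beside that in high-share enterocytes, where 12 of 10794 genes passed (0.111%) and 4 genes passed in both. The difference of the effects was tested in a single fit over both groups of cells with library as a block. It passed for 3 of 11305 genes (0.0265%): Acot1, Fabp1 and Id2. For Acot1 the effect was smaller in low-share cells, by -1.97 ± 0.16 on the log2 scale (adjusted p = 0.0141 by edgeR). In control libraries Acot1 was at 42.5 and 67.5 CPM in low-share but at 7.88 and 16.6 CPM in high-share enterocytes. In ketogenic libraries the levels came close, at 332 and 192 against 284 and 168 CPM. Stem cells held 82.7 and 86.9 CPM of Acot1 in the control libraries, so among these 3 groups of cells the high-share enterocytes held the least. Goblet cells held 9.44 and 14.8 CPM. Fabp1 went the other way, with a larger effect in low-share cells by 1.26 ± 0.13 (adjusted p = 0.0412 by edgeR). High-share enterocytes went from 1426 and 1617 CPM to 13308 and 5298 CPM, so they held more Fabp1 in every library. The Fabp1 difference was not called without control library 1 (adjusted p = 0.549) or control library 2 (adjusted p = 1), with log2 values of 1.28 and 1.21. The Acot1 difference was not called without control library 2 (-2.20, adjusted p = 0.0597). With the share taken over Alpi, Rbp2 and Ada alone 0 differences were called by edgeR, with 283 genes at an unadjusted p under 0.05, and Acot1 and Fabp1 were at -1.73 and 1.27. Id2, an inhibitor of differentiation factors, lies under the level set for named genes and is named after its values were seen. Its difference was 1.57 ± 0.17 (adjusted p = 0.0412 by edgeR). In low-share cells it was at 37.2 and 15.7 CPM in control and 19.6 and 23.5 CPM in ketogenic libraries, with overlap, and in high-share cells it went from 54.5 and 24.1 to 10.1 and 11.6 CPM. It was not called when any 1 library was left out, with log2 values from 1.48 to 1.59.

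For the other named changed genes the difference did not pass. Mgll had 3.85 ± 0.39 in low-share and 5.12 ± 0.51 in high-share enterocytes (difference -1.28 ± 0.71, adjusted p = 0.994 by edgeR). Acadl had 0.87 ± 0.11 in low-share and 0.87 ± 0.14 in high-share enterocytes, Acadvl 0.81 ± 0.10 and 0.81 ± 0.16, and Smim24 -1.21 ± 0.14 and -1.14 ± 0.24. A difference that misses the threshold does not show that the effects are equal. Sis had -3.43 ± 0.44 and -3.02 ± 0.30, from levels that were lower in low-share cells. Pkm had -0.87 ± 0.10 in low-share and -1.5 ± 0.14 in high-share cells, and the difference did not pass (0.65 ± 0.13, adjusted p = 0.727 by edgeR). The PPAR list had medians of 0.77 and 1.04 and the cholesterol list of -0.56 and -0.66, with no test of these differences.

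**Figure D5:**
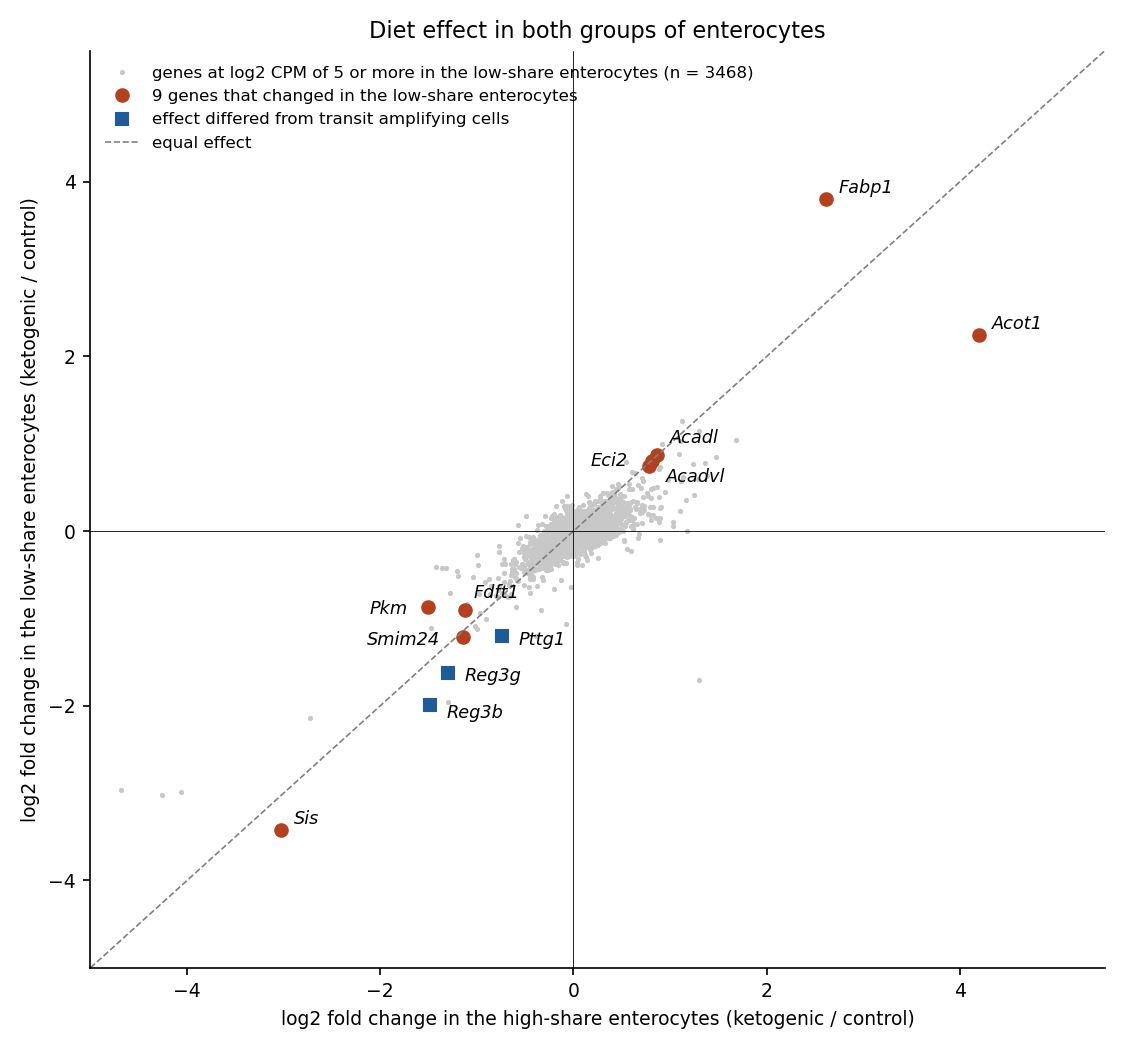
Each point is a gene, with the log2 fold change of ketogenic over control in high-share enterocytes on the x axis and in low-share enterocytes on the y axis; the dashed line marks equal effects. Fabp1 lies above the line, Acot1 below it, and Acadl and Acadvl on it.

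The neighbouring class on the side of the crypt gave a further comparison. The diet effect differed between low-share enterocytes and transit amplifying cells for 4 of 10935 genes (0.0366%), each with a lower value in low-share cells: Reg3b, Reg3g, Myl7 and Pttg1. Reg3b was at 2655 and 1387 CPM in control and 341 and 671 CPM in ketogenic low-share cells, and at 743 and 501 against 269 and 321 CPM in transit amplifying cells. The difference in effect was -0.92 ± 0.09 on the log2 scale (adjusted p = 1.84e-14 by edgeR). Reg3g, a related lectin, had a difference of -0.73 ± 0.10 (adjusted p = 1.74e-07), from 1538 and 740 to 258 and 479 CPM in low-share cells. Both lectins were highest in low-share cells of control library 1. Over 15 alternatives the Reg3b difference ran from -1.32 to -0.47 and that of Reg3g from -1.10 to -0.35. The Reg3b difference passed in 14 of the 15 and the Reg3g difference in 10. edgeR shares its estimate of spread across genes, so the SE and p of both lectins may understate how far these libraries differ. Without the Fabp6-rich cells the differences were -0.47 for Reg3b and -0.40 for Reg3g, and both still passed. Without ketogenic library 1 they were -0.59 and -0.42, and Reg3g did not pass. Without control library 1 they were -0.71 and -0.35, and both passed. Pttg1, the securin of cell division, had -0.76 ± 0.17 (adjusted p = 0.0300) and stood at 129 CPM in low-share cells of control library 1 against 34.3 to 42.9 CPM in the other 3 libraries. Without control library 1 its difference was -0.20 and did not pass, nor did it without either ketogenic library (-0.81 and -0.67). Myl7, a myosin light chain at a low level that is named after its values were seen, had -1.51 ± 0.31 (adjusted p = 0.0107), and did not pass without control library 1 (-0.91) or ketogenic library 1 (-1.33). DESeq2 called 0 genes in this comparison, with 8 at an unadjusted p under 0.05. Fabp1, Acot1 and Sis had differences from transit amplifying cells of 0.13, -0.38 and 0.42, none past the threshold.

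The 5 genes of the rule set the membership and are described without a test. Rbp2, the most abundant of them by UMIs, was at 43.8 and 16.4 CPM in control and 44.8 and 10.8 CPM in ketogenic low-share enterocytes. Apoa1 was at 12.1 and 7.91 CPM in control and 17.1 and 3.31 CPM in ketogenic libraries. For both genes the low-share level was higher in control library 1 and ketogenic library 1 than in the other 2 libraries, as was the dividing share.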

How the data were processed

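Unnormalized UMI counts for every cell, deposited by the authors, were used together with their table of cell types. Per the submitters' processing notes, Cell Ranger 2.1.0 and mm10 were used. The sources used here state neither cell filters nor doublet handling nor the annotation method. Counts were summed per library over low-share, high-share and transit amplifying cells, since cells are not replicates, and tested with edgeR 4.0.16 (quasi-likelihood, TMM, filterByExpr, Benjamini-Hochberg adjustment over all genes, threshold 0.05) in R 4.3.3. CPM beside tests use TMM-adjusted library sizes, and other CPM use plain totals. SE is the log2 fold change over the root of F. F uses a spread that edgeR shares across genes, so an SE can be smaller than the spread of that gene's own libraries. Differences in effect came from 8 sums with library as a block. An exact permutation test of 2 against 2 libraries cannot give a p under 0.333. The tests were tested on data simulated with edgeR's own estimates of spread. Such data cannot show whether that spread is right for these libraries. Members and gene lists were chosen with earlier results of these data known. Named genes were the 5 rule genes, 5 markers, up to 10 rises and 10 falls past the threshold at log2 CPM of 5 or more without overlap, up to 4 called genes per list or the member with the lowest p, and the genes whose effect differed. Of these, those the text turns on are given. Some genes taken by that rule are included in counts but not reported here. Positions come from GENCODE M21 on mm10, with 72 of 73 symbols matched. Scrublet in scanpy 1.11.5 called from 0.0204% to 0.188% of cells, taken as a sign that it had not worked, so doublets were kept, and an alternative dropped the top 6% by score. Further alternatives left out each library in turn, used a replicate block, 4 other divisions of the enterocytes, thinned sums, cells under 10% mitochondrial UMIs, all genes without a filter, RLE scaling, or DESeq2 1.42.0. Leaving out cells with 10 or more Fabp6 UMIs was chosen after seeing the data.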

Additional observations from a re-analysis of the deposited data

Results flagged for a closer look

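The diet effect differed between classes of cells, by a test of the difference, for 7 genes. Between low-share and high-share enterocytes, the difference in log2 fold change was -1.97 ± 0.16 for Acot1 (adjusted p = 0.0141 by edgeR), 1.26 ± 0.13 for Fabp1 (adjusted p = 0.0412) and 1.57 ± 0.17 for Id2 (adjusted p = 0.0412). Between low-share enterocytes and transit amplifying cells it was -0.92 ± 0.09 for Reg3b (adjusted p = 1.84e-14), -0.73 ± 0.10 for Reg3g (adjusted p = 1.74e-07), -1.51 ± 0.31 for Myl7 (adjusted p = 0.0107) and -0.76 ± 0.17 for Pttg1 (adjusted p = 0.0300). Of these, Fabp1, Id2, Pttg1 and Myl7 lost their calls without control library 1. Acot1 lost its call without control library 2 and Reg3g without ketogenic library 1. With the division on Alpi, Rbp2 and Ada, 0 differences between low-share and high-share cells were called. DESeq2 called 0 differences from transit amplifying cells. Over 15 alternatives Reg3b was called in 14 and Reg3g in 10. The SE and p of Reg3b and Reg3g may understate the spread between libraries.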

How the results depend on the processing

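The diet effect in low-share enterocytes, 12 genes, gave 45 by DESeq2, 20 with only cells under 10% mitochondrial UMIs, 3 with the outer groups when enterocytes were cut into 3 equal groups by share, 4 with mitochondrial UMIs left out of the share, 33 without cells with 10 or more Fabp6 UMIs, and 1 to 886 when each library was left out. The count in high-share enterocytes, also 12, was 244 with no filter on low counts, 115 by DESeq2, 5 under the mitochondrial limit, 0 with thinned sums, 90 with 1 division for all libraries, 0 with a division on Alpi, Rbp2 and Ada, 28 with the outer of 3 groups, and 20 to 267 without 1 library. The difference between the groups, 3 genes, gave 7 by DESeq2, 23 with 1 division, 0 with the division on Alpi, Rbp2 and Ada, and 1 to 12 without 1 library. The difference from transit amplifying cells, 4 genes, gave 10 with no filter, 0 by DESeq2, 1 under the mitochondrial limit, 1 without the highest doublet scores, 9 with 1 division, 1 with the outer of 3 groups, and 3 to 104 without 1 library. The causes were not tested. The titles share replicate numbers but do not say whether libraries of the 2 diets were paired. In low-share enterocytes the correlation of replicate deviations between diets was -0.265 over 3469 genes, which cannot settle it. A replicate block gave 3 calls in low-share and 240 in high-share enterocytes. Where a library was left out, the single one left in that diet is taken to vary as the others do. Of 235 values of called genes under alternatives 171 remained called, 64 did not and 0 changed sign. With 2 libraries per diet, small effects are not detectable.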
